A study of Mus musculus with 4 samples.

Results

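The heat shock proteins and chaperonins measured here were 70 genes of 12393 that the array named by 1 symbol. They were picked out by symbol, as the Hspa, Hspb, Hsp90, Dnaja, Dnajb, Dnajc and Cct genes with Hspd1, Hspe1, Hsph1, Tcp1 and Cryab. These families were chosen with earlier results of these data known. Each gene was read from its probe set with the highest mean over the 4 arrays. Of the 70 genes, 63 were bright enough to test, having an average scaled intensity of 100 or more. The study set the atrioventricular (AV) junction, where the cushions of the future valves form, against the ventricular region of wild-type C57BL/6 mouse hearts at embryonic days 10.5 to 11.0. RNA of each region came from tissue of about 80 hearts, 230 ng for the junction and 250 ng for the ventricle, and was amplified before labelling. Each region was put on a pair of Affymetrix MOE430A arrays, 1a and 1b, taken here as readings of 1 pool, so the p-values cover the spread between arrays and not between hearts.

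Chaperones bind unfolded or newly made proteins and keep them from clumping until they fold. Hsp70 proteins clamp short stretches of a client under ATP hydrolysis, J-domain (Dnaj) proteins bring clients to them and trigger that hydrolysis, and Hsp110 proteins exchange the nucleotide to let the client go. Hsp90 finishes kinases and receptors, the TRiC/CCT ring folds actin and tubulin, Hspd1 and Hspe1 form the folding chamber of mitochondria, and small heat shock proteins hold clients without ATP. In heart muscle the small heat shock proteins are abundant and guard the filaments of the sarcomere and the cytoskeleton.

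Most chaperone genes did not pass the test between the regions, and those that passed went both ways. At a limma adjusted p (Benjamini-Hochberg) no higher than 0.05, 6 of the 63 were higher in the AV junction (9.52%) and 9 were lower (14.3%), while 48 did not pass. Over all 8410 genes tested, 8.47% were higher and 6.56% lower, 15.0% in all, against 23.8% of the chaperone genes. Whether these shares differ was not tested. The median log2 fold, AV junction minus ventricular region, was −0.01 over the 63 genes and −0.06 over all genes. Arrays of the regions did not overlap for 41 of the 63 (65.1%), close to the 62.4% of all genes. Refitted without AV array 1a, 3 genes were higher, of which only Dnajb4 was among the 6 (the others were Cct8 and Hspa14), and 5 of the 9 stayed lower. Refitted without AV array 1b, 3 of the 6 and 6 of the 9 passed again. Dropping ventricular array 1a or its duplicate 1b lost more of the calls than dropping either AV array. Fewer of all genes passed in each of these fits too. With a ventricular array dropped, the shares of chaperone genes and of all genes that passed lay closer together than in the full fit. The 3 genes Dnajb4, Dnajc15 and Hspb7 passed in each of those fits.

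**Figure D1:**
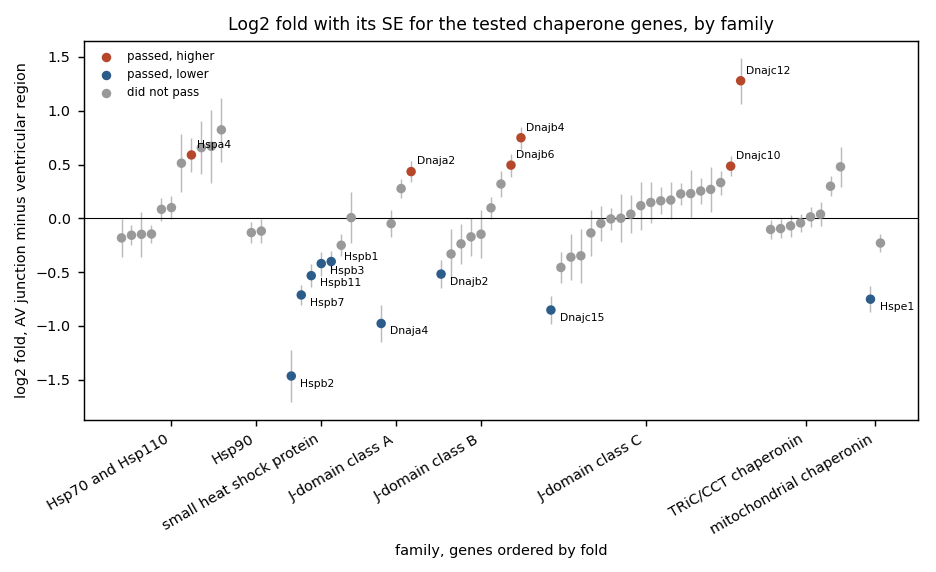
Log2 fold, AV junction minus ventricular region, with its SE, for the 63 tested genes in their 8 families (x axis, ordered by fold within a family). Named points passed: 5 of the 7 genes plotted as small heat shock proteins, Hspb11 included, passed below 0, the J-domain genes that passed lie on both sides, and no Hsp90 or TRiC/CCT gene passed.

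The tissue markers differed between the same arrays. Of 9 tested ventricular muscle markers 8 were lower in the AV junction, and their summed intensity was 20978 to 21973 in the junction against 72283 to 75537 in the ventricle. Of 10 markers of heart muscle in general 5 were lower and 5 did not pass, with sums of 131480 to 134610 against 172880 to 190710. Much of that gap lay in Myh7 (means of 18930 against 37370) and Myl3 (16975 against 35555). Myh6 and Ttn had log2 folds above 0 (0.18 and 0.03) and did not pass. Of 9 erythroid markers 7 were lower (41566 to 42773 against 78287 to 85515). Cushion mesenchyme markers were higher in 10 of 11 (18329 to 21124 against 5934 to 6005), as were 4 of 5 hepatic serum protein genes (7002 to 7361 against 527 to 610). Among 8 endothelial markers 2 were higher and 0 lower, and the defining Pecam1 and Tie1 read at or below the brightest Bacillus subtilis control on all arrays. In pooled tissue, fewer cells of a type and less RNA per cell cannot be told apart, and the part of cell makeup in the chaperone differences was not tested.

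**Figure D2:**
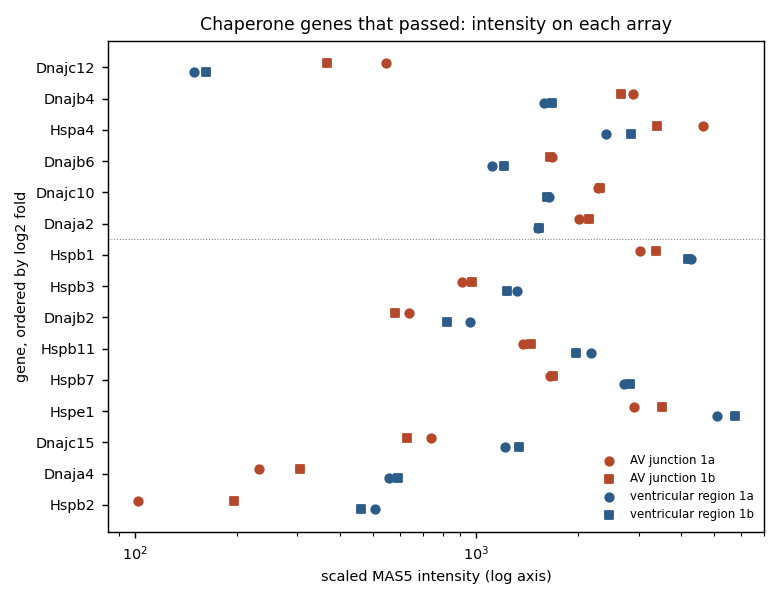
Scaled MAS5 intensity (log axis) on each of the 4 arrays for the 15 genes that passed, ordered by log2 fold, with circles for arrays 1a and squares for arrays 1b. The 9 genes under the dotted line were lower in the AV junction and the 6 above it higher. In none of the 15 do the arrays of the regions overlap, nor do they in 62.4% of all genes tested.

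Promoters are shown because heat shock genes are known for a common element, bound by heat shock factors and built from inverted repeats of a short unit. The RefSeq promoter table (GRCm38.p6) held 57 of the 70 genes. The 250 bases before each start were searched for GAANNTTC and TTCNNGAA, which read alike on both strands, and for GAANNTTCNNGAA on both strands, which contains both pairs. Either pair was found for 15 of the 57 genes (26.3%) and for 14.5% of all 27025 genes in the table. Among genes with an entry, it was found in 3 of 5 that were higher in the AV junction, 4 of 8 that were lower and 8 of 38 that did not pass. The longer form was found in Hspd1, Hspe1 and Dnajb6, and in 0.514% of all genes. The stretch of Hspe1 also lies before a start of Hspd1, as described below, so 1 stretch can count for both genes. A match describes letters and not a bound site. The stretches of 3 genes that were lower (Hspe1, Dnaja4, Hspb1) and 2 that were higher (Dnajb4, Dnajb6) follow, with the matching bases in capitals:
Hspe1, chr1:55088034-55088101, plus strand: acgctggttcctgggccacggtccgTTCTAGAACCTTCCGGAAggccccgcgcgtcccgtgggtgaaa
Dnaja4, chr9:54699444-54699539, plus strand: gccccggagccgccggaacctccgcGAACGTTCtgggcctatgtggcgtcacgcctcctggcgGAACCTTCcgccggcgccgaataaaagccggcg
Hspb1, chr5:135887777-135887854, plus strand: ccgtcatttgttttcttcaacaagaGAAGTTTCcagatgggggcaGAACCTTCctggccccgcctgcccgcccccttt
Dnajb4, chr3:152193846-152193884, minus strand: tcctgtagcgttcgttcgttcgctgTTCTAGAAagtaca
Dnajb6, chr5:29735827-29735889, plus strand: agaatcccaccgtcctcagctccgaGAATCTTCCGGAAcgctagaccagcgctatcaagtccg

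The small heat shock family was counted here by symbol, as the Hspb genes with Cryab, and so holds Hspb11, which despite its name is a subunit of the transport trains of cilia. Of these 7 genes, all tested, 5 fell in the AV junction (71.4%, beside 6.56% of all genes), 0 rose and 2 did not pass. Their median log2 fold was −0.42. Without Hspb11, 4 of 6 fell. When 1 array was left out 1 to 3 of the 7 were lower (1 or 2 of the 6), and with median scaling 3 (2 of the 6). Hspb7, a small heat shock protein of heart and skeletal muscle, read 1653 and 1689 in the junction and 2721 and 2823 in the ventricle. Its arrays stood clearly apart by region and hardly differed within one (1671 ± 25.6 against 2772 ± 72.1, SD, n = 2), a 1.64-fold difference in favour of the ventricular region (log2 fold −0.71, SE 0.10, adjusted p = 0.00455). Its second probe set was lower too (−0.57, adjusted p = 0.0431).

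Hspb2, which binds the myotonic dystrophy kinase in muscle, read 102 and 195 in the AV junction and 508 and 461 in the ventricular region. The AV arrays differed from each other more than the ventricular ones did, and the regions did not overlap (log2 fold −1.47, SE 0.24, adjusted p = 0.0103). Its log2 fold was −1.81 without AV array 1b but −1.12 when 1a was dropped instead, and its adjusted p was 0.0627 without ventricular array 1a. Hspb3, its partner in muscle, read 909.8 and 972 against 1318 and 1236 (log2 fold −0.42, adjusted p = 0.0473). Cryab, the alpha B crystallin that binds desmin, is the neighbour of Hspb2 in RefSeq's gene table. It read 6045 and 6728 against 7176 and 8044, with no overlap, and did not pass (log2 fold −0.25, SE 0.10, adjusted p = 0.144).

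Hspb1, which steadies actin filaments and whose promoter stretch is shown above, read 3028 and 3364 in the AV junction and 4266 and 4202 in the ventricular region. It fell by 0.40 on the log2 scale (adjusted p = 0.0347), and its second probe set gave −0.45 (adjusted p = 0.0725). The cilia gene Hspb11 read 1378 and 1455 against 2178 and 1971 (log2 fold −0.53, adjusted p = 0.0185). Hspb8, which works with Bag3 to clear damaged filament proteins, showed no order of the regions on its brightest probe set. That probe set read 491 and 709.6 against 467 and 739 (log2 fold 0.01, adjusted p = 0.989). Its other probe sets gave −0.06 and −0.60, the latter with no overlap, and did not pass (adjusted p = 0.804 and 0.142). Of these calls, Hspb1 and Hspb3 missed whichever array was left out (adjusted p 0.0536 to 0.138 and 0.0889 to 0.189) and also under median scaling (0.0537 and 0.0676). Hspb11 passed without AV array 1b (0.0484) and missed when AV array 1a (0.0676) or either ventricular array (0.103 and 0.0554) was dropped.

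The 2 genes of the mitochondrial chaperonin lie side by side in RefSeq's gene table, and the promoter stretch of Hspe1 above, with its 3 overlapping pairs, also lies, on the other strand, before one of the starts that RefSeq lists for Hspd1. Hspe1, the lid of the chamber, read 2902 and 3513 in the AV junction and 5110.0 and 5736 in the ventricular region. Both ventricular arrays were higher than both AV arrays, 1.69-fold on average (log2 fold −0.75, SE 0.12, adjusted p = 0.0089). Hspd1, the barrel, read 7796 and 8301 against 9462 and 9426, with no overlap, and did not pass (log2 fold −0.23, SE 0.09, adjusted p = 0.12). Whether the folds of Hspe1 and Hspd1 differ was not tested. Hspe1 was read from a probe set ending in _s_at. The gene did not pass when those ending in _x_at or _s_at were left out (adjusted p = 0.12). The second probe set of Hspe1 gave −0.40 (adjusted p = 0.124), and the gene missed without ventricular array 1b (0.0563).

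Dnajc15, a J-domain protein of the inner membrane that acts on the import motor and on the respiratory chain, read 740.2 and 629.8 in the AV junction and 1216 and 1334 in the ventricular region. It was 1.81-fold higher in the ventricular region (log2 fold −0.85, SE 0.13, adjusted p = 0.00735). The mitochondrial Hsp70 gene Hspa9 read 4121 and 4109.9 against 4648 and 4473, with no overlap, and did not pass (log2 fold −0.15, adjusted p = 0.292). Its second probe set gave −0.41, also with no overlap, and did not pass (adjusted p = 0.0654). Of 9 tested genes in a list of mitochondrial protein quality control, 0 were higher and 3 lower, with a median log2 fold of −0.19. Over all genes tested, 8.47% were higher and 6.56% lower. The 3 lower genes of the list included the protease gene Htra2 (632 and 683 against 1329.6 and 1303, log2 fold −0.95, adjusted p = 0.00295). The others were 2 genes of the import motor, Timm44 (−0.48, adjusted p = 0.0173) and Pam16 (−0.38, adjusted p = 0.0459). Htra2 and Pam16 were read from probe sets ending in _s_at and were not tested with such probe sets left out. Htra2 passed without any 1 array, while Timm44 (up to 0.0896) and Pam16 (up to 0.19) missed whichever was left out.

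**Figure D3:**
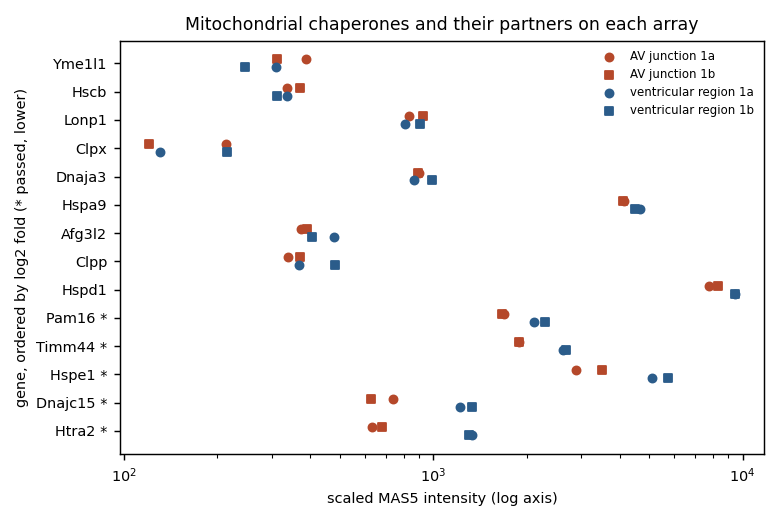
Scaled MAS5 intensity (log axis) on each array for the mitochondrial chaperones Hspd1, Hspe1, Hspa9, Dnaja3 and Dnajc15, a choice made after their values were seen, and for the 9 tested genes of mitochondrial protein quality control. Starred genes passed: in Htra2, Dnajc15, Hspe1, Timm44 and Pam16 both ventricular arrays lie to the right of both AV arrays, while the others did not pass.

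Of 38 J-domain genes 33 were tested, with a median log2 fold of 0.10. In the AV junction 5 of them (15.2%) rose, beside 8.47% of all genes. A further 3 (9.09%) fell, beside 6.56% of all genes, and 25 did not pass. When 1 array was left out, 1 or 2 were higher and 1 or 2 lower. Dnajc12, a partner of the aromatic amino acid hydroxylases, had the largest rise of the 63 genes. It read 545 and 367 in the AV junction against 149 and 162 in the ventricular region, 2.43-fold apart (log2 fold 1.28, SE 0.21, adjusted p = 0.0101). The AV arrays were uneven, and its adjusted p was 0.0534 without AV array 1a and 0.0518 without ventricular array 1a.

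Dnajb4, a partner of Hsp70 in the cytosol, read 2896 and 2659 against 1588 and 1675. Both AV arrays lay far above the ventricular pair (log2 fold 0.75, SE 0.10, adjusted p = 0.0047), whereas the dimmer of its probe sets did not pass (162 and 183 against 91.9 and 72.4, adjusted p = 0.0784). That probe set gives no exact fold, since both its ventricular readings were at or below the brightest Bacillus subtilis control of those arrays (97.9 and 104). On the AV arrays the control was dimmer (58.6 and 52.6). Dnaja2, another partner of Hsp70 in the cytosol, read 2011 and 2143 against 1519 and 1528 (log2 fold 0.43, adjusted p = 0.0305). Its close relative Dnaja1 read 4417 and 4159.5 against 3464 and 3597 and did not pass on that probe set (0.28, adjusted p = 0.0872), while its second probe set passed at 0.69 (adjusted p = 0.0191).

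The other higher J-domain genes passed on 1 of their probe sets. Dnajb6, which keeps aggregation-prone proteins apart, read 1673 and 1647 against 1119 and 1210.4 (log2 fold 0.49, adjusted p = 0.0239), whereas its other probe sets gave −0.58 and −0.52 and did not pass. With the mean of its probe sets the log2 fold was −0.20. Dnajc10, which reduces disulphide bonds in the endoplasmic reticulum, read 2279.9 and 2311 against 1634 and 1619 (log2 fold 0.48, adjusted p = 0.0181), and its other probe sets gave −0.07 and 0.51. Dnaja2, Dnajb6 and Dnajc10 missed whichever array was left out, with adjusted p-values of up to 0.118, 0.115 and 0.085.

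Besides Dnajc15, Dnaja4 and Dnajb2 were the lower J-domain genes. Dnaja4, a further partner of cytosolic Hsp70 with a pair of matches in the stretch above, read 232 and 306 in the AV junction and 557 and 592 in the ventricular region, 1.97-fold higher there (log2 fold −0.98, SE 0.17, adjusted p = 0.0114). It missed without ventricular array 1a (0.0559) or 1b (0.0667). Dnajb2, which hands Hsp70 clients to the proteasome, read 638 and 579 against 965 and 826 (log2 fold −0.52, adjusted p = 0.0438). It missed whichever array was left out (up to 0.198) and under median scaling (0.057). Among the J-domain genes that did not pass, the brightest were Dnajc8, a splicing protein (0.17, adjusted p = 0.533), Dnajb1, the main inducible partner of Hsp70 (0.10, adjusted p = 0.546), and Dnajc5, of secretory vesicles (0.33, adjusted p = 0.0896).

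**Figure D4:**
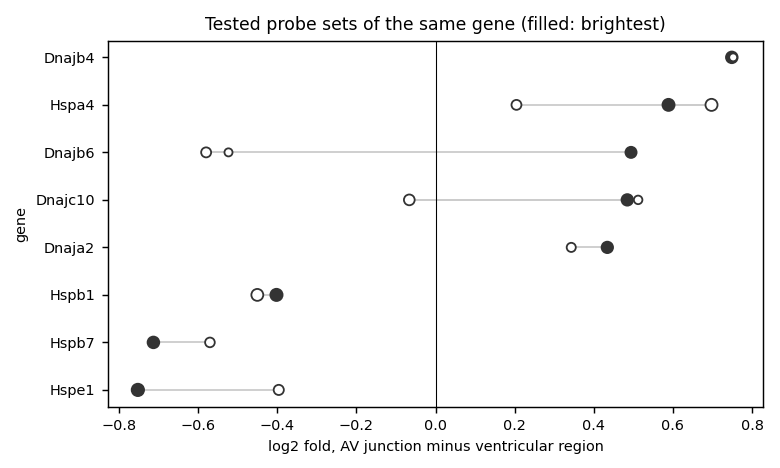
Log2 fold of every tested probe set for the 8 genes that passed and had several (filled circle: the brightest, which represents the gene; larger circles are brighter). For 6 genes all probe sets lie on 1 side of 0, while those of Dnajb6 and Dnajc10 lie on both sides. The dim probe set of Dnajb4 has ventricular readings at or below the brightest control of those arrays, which was brighter there than on the AV arrays.

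Of 12 Hsp70 and Hsp110 genes 11 were tested, of which 1 rose in the AV junction (9.09%, beside 8.47% of all genes), 0 fell and 10 did not pass. Hspa4, an Hsp110 protein that recharges Hsp70, read 4624 and 3399 in the AV junction against 2414 and 2842 in the ventricular region (log2 fold 0.59, SE 0.16, adjusted p = 0.0473). A second probe set, with AV arrays at 3995 and 4006, passed at 0.70 (adjusted p = 0.00955), and the dimmest did not (0.20). The first passed without AV array 1b only (0.0207) and missed when AV array 1a (0.156) or either ventricular array (0.198 and 0.0864) was dropped. The constitutive Hspa8, the main Hsp70 of unstressed cells, read 26143 and 28372 against 29421 and 31387 (log2 fold −0.16, adjusted p = 0.276), and with quantile normalisation its log2 fold was 0.09. Hspa14, a ribosome-bound member, had a large but uneven log2 fold of 0.82 (1098 and 2149 against 701 and 1024, adjusted p = 0.109), and its second probe set gave −0.24.

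The stress-inducible Hspa1a and Hspa1b were dim. Hspa1b read 290.2 and 231 against 187 and 112 (log2 fold 0.66, adjusted p = 0.119). Its other probe sets were too dim to test, and the regions overlapped in both. Hspa1a read 113 and 150.2 against 65.4 and 89.2 (adjusted p = 0.235), with both ventricular arrays at or below the brightest Bacillus subtilis control. That control read 97.9 and 104 on the ventricular arrays but 58.6 and 52.6 on the AV arrays, so the bar differed by region. Hspa1a and Hspa1b are near-identical copies, so their probe sets may share signal. Transcripts that respond to tissue handling went both ways on the same arrays: of 14 tested, 3 were higher (Jun, Klf4, Klf6) and 3 lower (Fos, Egr1, Atf3). A dimmer probe set of Hspa4l, another Hsp110 gene, passed at −0.93 (adjusted p = 0.0328), while the brighter one gave −0.15. Hspa12b, an unusual member of endothelial cells, read 173 and 168 against 145 and 48.6 (0.67, adjusted p = 0.224). Ventricular array 1b was below the brightest control there, and without it the log2 fold was 0.18.

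The endoplasmic reticulum chaperones Hspa5 and Hsp90b1 differed little between the regions. Hspa5, its Hsp70, read 14383 and 17278 against 15123 and 14318, with overlap (log2 fold 0.10, SE 0.11, adjusted p = 0.566). Hsp90b1, its Hsp90, read 1414 and 1295 against 1509 and 1439.5 (−0.12, adjusted p = 0.482), and Dnajc3, an inhibitor of the stress kinases of translation, gave 0.12 (adjusted p = 0.751) with probe sets on both sides of 0. These 3 were the members whose promoters held the stress element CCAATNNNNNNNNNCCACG, found in 0.13% of all genes. In a list of 17 tested genes of folding and stress in this compartment 2 were higher and 1 lower, beside 8.47% and 6.56% of all genes. Their median log2 fold was 0.12. The stress factor gene Xbp1 (0.38, adjusted p = 0.0294) and the translocon's J-domain gene Sec63 (0.58, adjusted p = 0.0267) were higher, and Atf4, of another stress branch, was lower (−0.57, adjusted p = 0.0309). Each of these missed with the mean of probe sets, and Xbp1 and Atf4 also without probe sets ending in _x_at or _s_at. Across the alternatives the log2 fold came as near 0 as 0.15 for Sec63 and −0.16 for Atf4. Xbp1 and Sec63 missed whichever array was left out (up to 0.135 and 0.107), and Atf4 passed without AV array 1a only (0.0408, otherwise up to 0.15).

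No TRiC/CCT gene passed, and neither did Hsp90aa1 or Hsp90b1, the only 2 Hsp90 genes among the members. Hsp90ab1 was not among the genes read here. The cytosolic Hsp90aa1 read 6686 and 6173 against 7375 and 6740.5 (log2 fold −0.13, SE 0.10, adjusted p = 0.374). Its dimmer probe sets gave −0.13 (adjusted p = 0.515) and 0.39 (adjusted p = 0.09). Of the 9 TRiC/CCT genes 8 were tested, and their log2 folds ran from −0.10 to 0.48 with a median of −0.01. Cct3, the brightest, read 22956 and 27134 against 25523 and 26917, and Cct4 9932 and 10210.0 against 10122 and 10638, so the regions overlapped in both. The log2 fold of Cct3 was −0.07, and 0.16 with quantile normalisation. The higher ones were Cct2 (0.30, adjusted p = 0.0704), whose other probe sets gave 0.03 and −0.33 and which passed with quantile normalisation, and Cct8 (875 and 1300.1 against 791 and 715, 0.48, adjusted p = 0.126). A dimmer probe set of Cct4 passed at −0.58 (adjusted p = 0.0308) while another gave 0.20.

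Of 66 tested co-chaperones and partners, from 78 genes listed, 3 were higher, 5 lower and 58 did not pass. Beside these counts, 8.47% of all genes tested were higher and 6.56% lower. Among 16 Hsp70 co-chaperones and exchange factors 1 was higher and 0 lower. That was Hyou1, the large Hsp70 relative that recharges Hspa5 (1771 and 1597 against 1063 and 933, log2 fold 0.73, adjusted p = 0.00975), which missed without ventricular array 1b (0.0566). Its remaining probe set, used when those ending in _s_at or _x_at were left out, gave −0.37 (adjusted p = 0.29). The list of 13 tested Hsp90 co-chaperones also held Trap1, the mitochondrial relative of Hsp90 itself, which did not pass (0.05, adjusted p = 0.827). In that list 1 gene was lower, Cdc37l1, a relative of the kinase co-chaperone Cdc37 (864 and 755 against 1325 and 1264, −0.65, adjusted p = 0.0145). It passed without AV array 1a only (0.0263) and reached 0.08 without the others. Of 10 tested genes in a list of prefoldin subunits, their relatives and other TRiC/CCT partners, 0 were higher and 0 lower. The heat shock factor Hsf2 read at or below the controls on all arrays, and Hsf1 was not analysed here.

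The other chaperone genes had log2 folds within 0.5 of 0 and did not pass, and 7 of the 70 were too dim to test. These were Hspa1l, Dnajb3, Dnajb7, Dnajb13, Dnajc5b, Dnajc17 and Cct6b, of which Hspa1l, Dnajb7, Dnajb13 and Cct6b read at or below the brightest Bacillus subtilis control on all arrays. Of 33 genes with several tested probe sets, 19 had all of them on 1 side of 0 and 14 on both sides. The 14 were Cct2, Cct4, Cct6a, Dnajb1, Dnajb6, Dnajc2, Dnajc3, Dnajc10, Dnajc11, Hsp90aa1, Hspa5, Hspa8, Hspa14 and Hspb8. Their probe sets lay farthest apart in Cct4, from −1.05 to 0.20, and in Dnajb6 and Hspa14, and closest in Cct6a, from −0.03 to 0.04.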

How the data were processed

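Per the submitters' processing notes, the authors used MAS5, and the deposited table gives each probe set a linear intensity on every array. The version is not given in the sources used here. For each array, values were multiplied to bring the 2% trimmed mean to 500 over 22626 non-control probe sets. Probe sets with a mean of at least 100 (13403) were kept, and log2 of intensity plus 50 was fitted with limma 3.58.1 (eBayes with trend) in R 4.3.3. P-values were adjusted over all 13403, and fold differences include the added 50. Brackets give log2 folds and limma's adjusted p-values. Symbols came from the platform annotation, and the 27 Bacillus subtilis control probe sets gave a background, since detection calls were not used here. The brightest of them read 58.6 and 52.6 on AV arrays 1a and 1b, and 97.9 and 104 on ventricular arrays 1a and 1b. The members and lists were chosen with earlier results of these data known. Genes were named if they passed, were among the 2 brightest of a family, had an absolute log2 fold of at least 0.5, or had probe sets in opposite directions, and of partners if they passed. Some others, such as Hspa9, Hspa4l, Cct8 and the partner Trap1, were named outside these rules. Cct6a and Cct6b were counted as Cct genes. Across probe sets, r was 0.981 and 0.979 within regions and 0.947 to 0.950 between them. All 4 arrays shared a chip lot, station and day, and the AV arrays were scanned first, so scan order and region cannot be told apart. Alternatives changed normalisation, scaling, pseudocount (1 or 200), floor (none or 300), variance trend, replicate block, arrays and probe sets. Plots used matplotlib 3.10.9 (Python 3.11.15).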

Additional observations from a re-analysis of the deposited data

How the results depend on the processing

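The calls rest on 1 pool per region read on a pair of arrays, and dim probe sets near the control level limit the fold of low genes; an exact permutation test of 2 arrays against 2 cannot go below 0.333. When 1 array was left out, with the lone array assumed to vary like the others, the chaperone genes gave 1 to 3 higher and 3 to 6 lower, the partners 0 to 2 higher and 1 to 3 lower, and all genes 301 to 369 higher and 167 to 314 lower. Without the variance trend, 2 chaperone genes were higher and 4 lower, 0 partners higher and 1 lower, and 244 of all genes higher and 209 lower. Without a filter, 1 partner was higher and 3 lower, and 439 of all genes were higher and 272 lower. Partners higher numbered 5 on the values as deposited, 5 with a floor of 300, 1 with the mean of probe sets and 1 without probe sets ending in _x_at or _s_at, where 3 were lower. With median scaling 6 chaperone genes were higher and 6 lower.

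Arrays with the same letter were not paired by the labels, and their deviations from the region means correlated at 0.0564. With the letter as a replicate block 10 chaperone genes were higher and 12 lower, among them all 15 of the calls without it, 6 partners were higher, and 854 of all genes were lower.

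Signs turned for these log2 folds, of which only Dnajb6 and Hyou1 had passed. With quantile normalisation they were 0.16 for Cct3, 0.094 for Hspa8 and −0.0076 for Hspb8, and with median scaling 0.0033 for Cct4. With the mean of probe sets they were −0.015 for Dnajb1, −0.20 for Dnajb6, −0.16 for Dnajc2, 0.043 for Hsp90aa1 and −0.22 for Hspb8. Without probe sets ending in _x_at or _s_at they were −0.33 for Cct2, 0.20 for Cct4, −0.32 for Dnajc2, −0.061 for Hspb8 and −0.37 for Hyou1. With 1 array left out the log2 fold ran from −0.19 to 0.050 for Cct3, from −0.095 to 0.17 for Cct6a, from −0.0080 to 0.20 for Dnajb1, from −0.16 to 0.40 for Dnajc3, from −0.063 to 0.40 for Dnajc8, from −0.052 to 0.59 for Dnajc11, from −0.033 to 0.23 for Hspa5 and from −0.30 to 0.31 for Hspb8. The cause was not tested.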
